A study of Mus musculus with 8 samples.

Results

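The genes described here encode the vesicle trafficking machinery that carries water channels to and from the cell surface. A list of 40 genes was drawn up by function: v-SNAREs, t-SNAREs and their partners, Rab GTPases with their adaptors, myosin motors, retromer components and proteins of clathrin-mediated endocytosis. They are 40 of 21887 protein-coding genes of the RefSeq table for GRCm38.p6 (mm10). For each gene, acetylated peaks were taken over its span plus 10 kb on each side, and a gene end was the 1 kb on either side of the start or the end of the span. The position listed for Vamp7, a v-SNARE of late endosomes, lies at X:10737-39191, below the lowest peak of any list on that chromosome, and may be a scaffold position, so 39 members are reported and Vamp7 was not analysed here. The same limit left 21779 protein-coding genes as the background.

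Water channels of the collecting duct are stored in vesicles beneath the apical membrane. Vasopressin acts through its V2 receptor and cAMP to bring aquaporin-2 vesicles to that membrane, where v-SNAREs on the vesicle pair with t-SNAREs on the target. Rab GTPases and myosins route and tether the vesicles, Nsf and its adaptor take spent SNARE complexes apart, and clathrin, dynamin and retromer return or recycle the channels.

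The study mapped acetylation of histone H3 at lysine 27 (H3K27ac), a mark of active promoters and enhancers, by chromatin immunoprecipitation and sequencing in mpkCCD cells, a mouse cortical collecting duct line. Cells of clone 11, at passages 6 to 10, were grown to confluence on permeable supports in medium with serum, insulin and dexamethasone, then kept for 24 h without serum or hormones. They were next given 0.1 nM dDAVP, an analogue of vasopressin selective for the V2 receptor, or vehicle for 24 h. Each treatment has 2 immunoprecipitated libraries, numbered by experiment, each with its own input, and the labels do not say how separate the 2 experiments were. The groups are therefore 1 clonal line under the same prior growth conditions, and they differ by the labels in dDAVP alone. The measure is covered bases, the bases of a gene's window that lie inside a called peak, which is a yes or no call per base and not a read count.

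The 4 peak lists differed in size more by experiment than by treatment. They held 20124 to 39745 peaks over 33.5 to 104 Mb, from 27923780 to 32705755 kept tags. The dDAVP list covered 0.951 times the bases of the vehicle list in experiment 1 and 0.590 times in experiment 2. Of the marker genes, 6 of 8 for principal cells (Aqp2, Aqp3, Avpr2, Scnn1a, Scnn1g and Hsd11b2) and 5 of 5 for epithelium had a gene end called in all 4 lists, and Aqp4 was called in no list. For intercalated cells 0 of 5 markers were called in all 4 lists, and for other cell types 2 of 16, Lrp2 and Cd68. In bulk chromatin, fewer cells with the mark and less mark per cell cannot be told apart.

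Acetylation was called at nearly every member in every list. All 39 members had covered bases in all 4 lists, against 57.7% of the 21779 protein-coding genes, and 0 members had no covered base in any list, against 32.5%. A gene end was called in all 4 lists for 36 members (92.3%), against 45.4% of all genes, and in no list for 0 members, against 44.6%. The exceptions were Stx3, Rab27b and Myo5a. For Stx3 and Myo5a the first listed transcription start lies 2166 bp and 1407 bp inside the gene span, and that start was called in all 4 lists. Rab27b, a Rab of secretory vesicles, had its end called in 3 lists, and a peak inside the gene, far from both ends, was called in all 4 (in dDAVP 2 it begins 73378 bp from the low-coordinate end at position 69979131 of chromosome 18). Members' windows were longer than those of all genes (median 53601 bp against 37217 bp), and a longer window can hold more covered bases.

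With dDAVP, the members did not move together in the 2 experiments. In experiment 1, 24 members had more covered bases with dDAVP than with vehicle and 15 had fewer, while of the 12558 genes covered in all 4 lists 5846 had more and 6695 fewer. In experiment 2, 2 members had more and 37 had fewer, beside 600 and 11952 of all covered genes, which is much the same split. Fewer covered bases with dDAVP in both experiments were found for 13 members (33.3%), against 51.4% of the 12558 genes covered in all 4 lists, and more in both for 0 members, against 2.84%. When each list was divided by its total covered bases, the direction turned for most of them: 5 members were lower in both experiments and 21 were higher, against 16.2% and 43.6% of all genes. A further 24 members (61.5%) had more in experiment 1 and fewer in experiment 2, against 43.7% of all genes, and 2 (5.13%), Stx4a and Cltc, the reverse, against 1.93%.

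**Figure D1:**
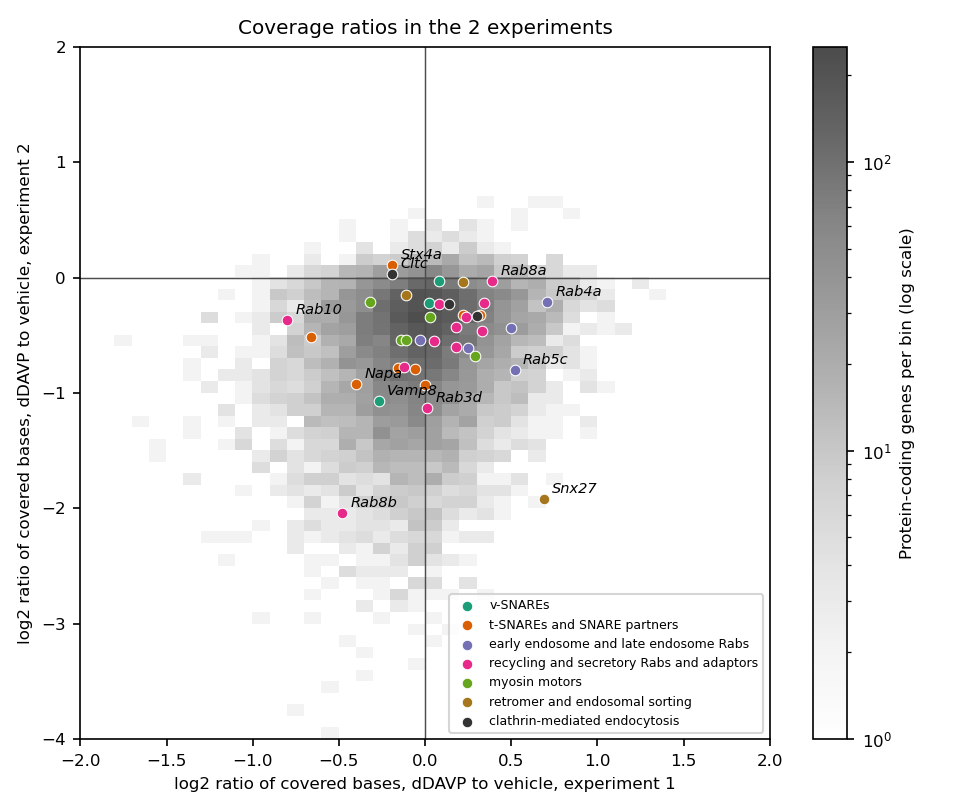
log2 ratio of covered bases, dDAVP to vehicle, in experiment 1 (x axis) and experiment 2 (y axis) for 39 trafficking genes (coloured points, by role) over the density of 12541 of the 12558 protein-coding genes covered in all 4 lists (grey bins, log scale). The points lie on both sides of 0 in experiment 1 and 37 of 39 lie below 0 in experiment 2.

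The median log2 ratio of covered bases over the members was 0.05 in experiment 1 and -0.44 in experiment 2, beside -0.02 and -0.49 over all covered genes. Set against that genome-wide level, the members' medians were 0.07 and 0.04 higher. Relative to the median of all genes, 10 members (25.6%) were below it in both experiments, against 28.1% of all genes, and 16 (41.0%) were above it in both, against 28.1%. The 10 below were Vamp8, Stx3, Stx12, Stxbp2, Napa, Rab5b, Rab8b, Rab11fip1, Myo5b and Myo5c. A difference of at least 1.5 times in both experiments, in the direction of fewer with dDAVP, was seen for 0 members, against 3.81%. Both dDAVP lists lay below both vehicle lists for 1 member (2.56%), Vamp8, against 5.66%. The spread between experiments was larger: both lists of experiment 1 lay above both of experiment 2 for 38 members (97.4%), all but Vamp8, against 92.0% of all genes. The exact permutation test, two-sided, cannot give a p below 0.5 within 2 pairs or below 0.33 without pairing, so no member could pass it.

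**Figure D2:**
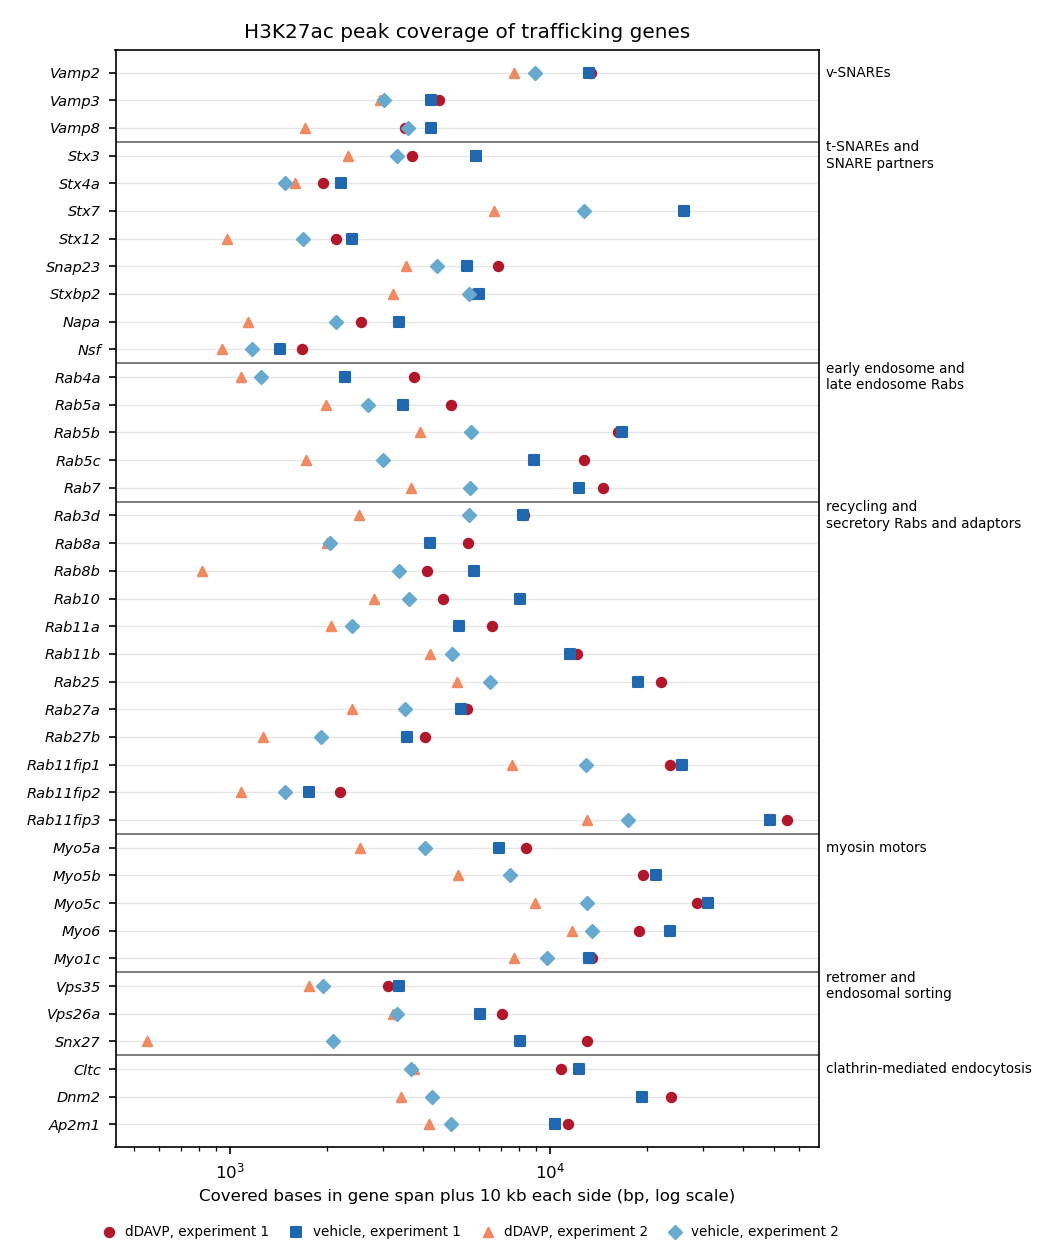
Covered bases (log scale) in the gene span plus 10 kb each side for the 39 members, by role, 1 point per peak list. For all members but Vamp8, both points of experiment 1 lie to the right of both points of experiment 2.

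Most of the difference between the experiments lay away from gene ends. Summed over the members, their own ends held 68303 bp in the dDAVP list and 68574 bp in the vehicle list of experiment 1, and 47026 bp and 55733 bp in experiment 2. Experiment 1 thus held 1.33 times the bases of experiment 2 there. In the rest of the gene bodies the values were 232622 bp, 225958 bp, 44860 bp and 72488 bp in the same order, 3.91 times as many in experiment 1. For all genes the corresponding factors were 1.46 and 2.87. The dDAVP to vehicle ratio was 0.996 at own ends and 1.03 in the rest of the bodies in experiment 1, and 0.844 and 0.619 in experiment 2, where all genes had 0.796 and 0.556. Ends of other genes inside the windows took 50447 bp, 50558 bp, 25766 bp and 33991 bp in the same order, so part of a window's value can belong to a neighbour.

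**Figure D3:**
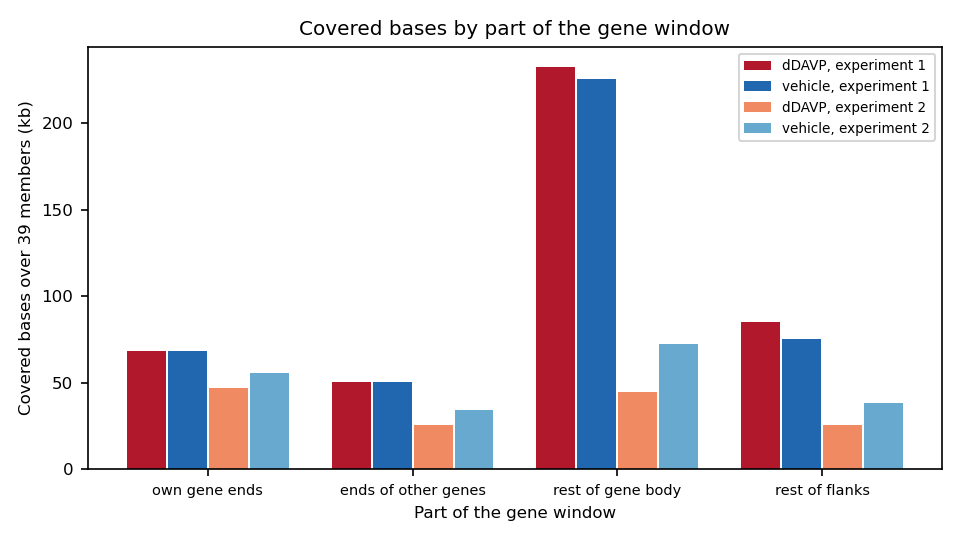
Covered bases (kb) summed over 39 members by part of the gene window, 1 bar per peak list. The bars of the gene body differ most between experiments, from 232622 bp with dDAVP in experiment 1 to 44860 bp with dDAVP in experiment 2.

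Merging the 4 lists gave 160 acetylated regions in the members' windows. Of these, 70 (43.8%) were called in all 4 lists, as were 36.2% of all 45705 regions, and 35 (21.9%) in both lists of experiment 1 only, as were 16.0% of all. No region was shared by the 2 dDAVP lists while absent with vehicle, a class that held 29 of all 45705 regions (0.0635%). The reverse, a region shared by the 2 vehicle lists while absent with dDAVP, was seen once (0.625%, against 2.51% of all regions), in the body of Snx27, a sorting nexin that links cargo to retromer. It lies at chr3:94565032-94566304 (1273 bp), the authors' fold was 2.79 and 2.62 in vehicle lists 1 and 2, and it was called in no list when all lists were cut to the strongest 20124 peaks.

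First listed transcription starts were available for 31 members, and 31 of 31 were called within 1 kb in all 4 lists, against 45.9% of 17492 genes. Starts listed after the first need not be: the one of Rab27a at chr9:73064148 had no covered base within 1 kb in any list. The start base itself lay in a peak for 30, 31, 28 and 31 members in dDAVP 1, vehicle 1, dDAVP 2 and vehicle 2 (96.8%, 100%, 90.3% and 100%), beside 97.7%, 98.3%, 85.1% and 95.4% of all genes with a called start. The exceptions were Napa in both dDAVP lists, and Stxbp2 and Ap2m1 in dDAVP 2. Napa is the adaptor that brings Nsf to SNARE complexes. Its peak began 16 bp and 92 bp downstream of the start in the dDAVP lists and reached 811 bp and 581 bp upstream in the vehicle lists, in the order of the experiments.

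The start peaks of members ran farther into the gene than away from it, as did those of all genes. The median reach downstream was 2001 bp in dDAVP 1, 2119 bp in vehicle 1, 920.5 bp in dDAVP 2 and 1000 bp in vehicle 2, beside 914.5 bp, 946.0 bp, 540.5 bp and 683.0 bp upstream. Over all genes with a called start the median downstream reach was 1520 bp, 1498 bp, 792.0 bp and 940.0 bp. Their median upstream reach was 1089 bp, 1098 bp, 660.5 bp and 781.0 bp. At 750 bp downstream, 100% and 100% of member starts were inside a peak in experiment 1. In experiment 2 the shares were 61.3% with dDAVP and 90.3% with vehicle, where all genes had 51.4% and 68.8%. At 1000 bp downstream in experiment 2 they were closer, at 38.7% and 51.6% for members and 30.9% and 44.6% for all genes. Of the 28 members whose start base was covered in all 4 lists, the peak over it was narrower with dDAVP in both experiments for 14 (50.0%), against 47.0% of 6786 genes, and wider in both for 3 (10.7%), Rab5b, Rab25 and Cltc, against 5.03%. This count was chosen after the values had been seen.

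**Figure D4:**
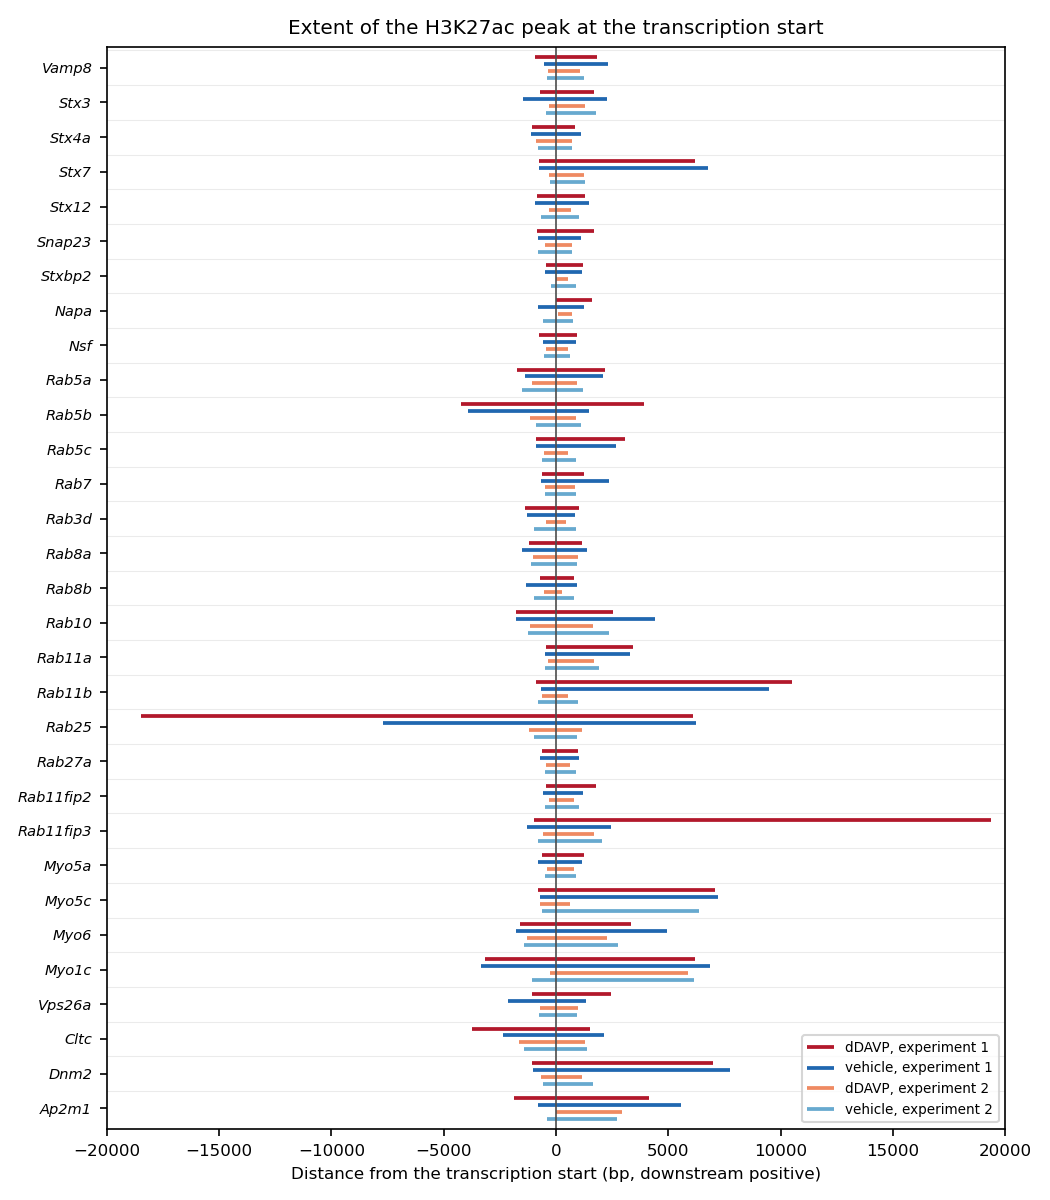
Extent of the peak at the first listed transcription start of 31 members (x axis, bp from the start, downstream positive), 1 bar per peak list. Where the start base was uncovered, the peak within 1 kb is drawn. The bars of experiment 1 are the longer ones for most members, with Rab25 and Rab11fip3 the longest.

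**Figure D5:**
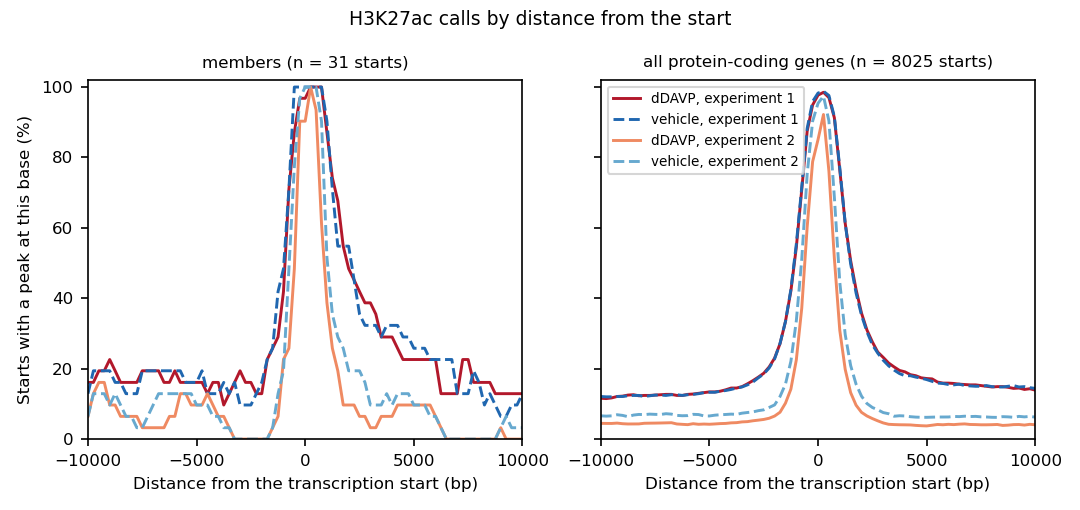
Share of transcription starts (y axis, %) with a peak at each distance from the start (x axis, bp, in steps of 250 bp) for 31 members and for 8025 protein-coding genes whose start was called within 1 kb in all 4 lists. At 750 bp downstream the lines of experiment 2 separate, at 61.3% with dDAVP and 90.3% with vehicle among members. At 1000 bp they are closer, at 38.7% and 51.6%.

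The promoters of 4 members are shown. Rab8b and Vamp8 have the lowest mean log2 ratios of the members, Rab8a has the highest after Rab4a, and Rab11a is the best known Rab of the recycling endosome. All 4 promoters lay whole inside a peak in every list. Each is the 250 bases before the RefSeq start, 5′ to 3′, from the RefSeq promoter table of GRCm38.p6, and capitals mark every match on either strand to the 8 motifs sought. Rab8b lies at chr9:66919706-66919955 on the minus strand, Vamp8 at chr6:72390668-72390917 on the minus strand, Rab8a at chr8:72160950-72161199 on the plus strand and Rab11a at chr9:64737757-64738006 on the minus strand.
Rab8b: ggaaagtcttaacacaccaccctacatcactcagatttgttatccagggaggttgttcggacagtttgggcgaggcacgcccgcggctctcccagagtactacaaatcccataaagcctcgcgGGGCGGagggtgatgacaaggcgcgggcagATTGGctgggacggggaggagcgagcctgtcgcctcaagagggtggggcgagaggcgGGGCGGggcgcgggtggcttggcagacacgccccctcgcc
Vamp8: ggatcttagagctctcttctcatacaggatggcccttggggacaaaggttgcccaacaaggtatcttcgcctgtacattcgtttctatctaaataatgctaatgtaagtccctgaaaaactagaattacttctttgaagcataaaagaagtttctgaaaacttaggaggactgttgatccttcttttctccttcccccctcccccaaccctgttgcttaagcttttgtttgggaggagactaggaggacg
Rab8a: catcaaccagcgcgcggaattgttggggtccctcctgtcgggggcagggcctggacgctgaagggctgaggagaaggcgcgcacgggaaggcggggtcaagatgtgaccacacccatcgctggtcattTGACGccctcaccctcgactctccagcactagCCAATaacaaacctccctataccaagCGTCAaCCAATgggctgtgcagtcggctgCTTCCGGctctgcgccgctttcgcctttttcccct
Rab11a: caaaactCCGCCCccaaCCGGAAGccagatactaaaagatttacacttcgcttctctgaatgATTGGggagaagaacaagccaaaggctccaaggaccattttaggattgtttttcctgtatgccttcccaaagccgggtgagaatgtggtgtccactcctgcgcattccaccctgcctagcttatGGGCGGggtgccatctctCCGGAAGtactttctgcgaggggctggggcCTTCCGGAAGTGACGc

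Motifs were sought on both strands, over the table's windows from 250 bases before the start to 50 after. The cAMP response element (CRE) was taken as TGACGTCA, and its core, which the CRE contains, as TGACG. The GC box was GGGCGG and the binding box of NF-Y was CCAAT. The TATA box was sought as TATAAA and the E-box, a site of basic helix-loop-helix factors, as CACGTG. The AP-1 site was TGANTCA and the Ets site was CCGGAAG. The CRE was in 4 of 31 member promoters (12.9%), those of Napa, Rab5a, Rab25 and Rab11fip3, and in 2.34% of 17492 promoters. TGACG was in 18 (58.1%, all promoters 23.8%), among them Rab8a and Rab11a with 2 matches each. GGGCGG was in 23 (74.2%, all 46.3%), with 2 matches in Rab8b and 3 in Rab11a. For Rab11a, 11 of the bases in these TGACG and GGGCGG matches lie after the start, outside the printed stretch. The Vamp8 promoter held 0 matches to any of the 8. CCAAT was in 19 (61.3%, all 39.0%), CACGTG in 6 (19.4%, all 7.90%), TATAAA in 4 (12.9%, all 13.3%), CCGGAAG in 4 (12.9%, all 11.9%) and TGANTCA in 0 (all 7.08%). Median GC content was 61.3% in member promoters and 56.3% in all. The 31 member starts were all called within 1 kb in all 4 lists, against 45.9% of the 17492. Motif shares among called promoters alone were not computed. A match describes these letters only.

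Among the v-SNAREs, which sit on the vesicle, Vamp8 alone had fewer covered bases with dDAVP in both experiments, and it was also lower in both after division by list totals. Vamp2 (chr11:69088528-69092381), the v-SNARE best known on aquaporin-2 vesicles, had 13437 bp in dDAVP 1, 13221 bp in vehicle 1, 7690 bp in dDAVP 2 and 8938 bp in vehicle 2. The treatments overlapped, with log2 ratios of 0.02 and -0.22. The end of its neighbour Per1 held 2001 bp, 2001 bp, 1762 bp and 2001 bp of these, and more lay in the flanks. Within the gene span alone Vamp2 had 3854 bp, 2767 bp, 949 bp and 927 bp, more with dDAVP in both experiments, though narrowly in experiment 2. Vamp8 (chr6:72385221-72390667), an endosomal v-SNARE, had 3524 bp, 4246 bp, 1711 bp and 3593 bp in that order. Both dDAVP values lay below both vehicle values, at log2 ratios of -0.27 and -1.07. The end of its neighbour Vamp5 inside the window held 773 bp, 1382 bp, 261 bp and 1766 bp of these, and the own ends of Vamp8 held 1919 bp, 1520 bp, 1362 bp and 1420 bp, which overlap between treatments. At equal list length Vamp8 had 1711 bp with dDAVP and 1651 bp with vehicle in experiment 2, so the direction there turned. Vamp3, a v-SNARE of recycling endosomes, differed little between treatments over its window (4479 bp, 4239 bp, 2945 bp and 3016 bp). Within its gene span alone it had 1484 bp, 1175 bp, 973 bp and 847 bp, more with dDAVP in both experiments.

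Of the 8 t-SNAREs and partners, 4 had fewer covered bases with dDAVP in both experiments, namely Stx3, Stx12, Stxbp2 and Napa, and after division by list totals 2 of them, Stx12 and Napa, still did. Stx3, the syntaxin of the apical membrane, had 3708 bp in dDAVP 1, 5864 bp in vehicle 1, 2327 bp in dDAVP 2 and 3308 bp in vehicle 2. The values of the treatments overlapped across experiments, since dDAVP 1 lay above vehicle 2. Stxbp2 (Munc18-2), which binds Stx3, had 5712 bp, 5972 bp, 3236 bp and 5582 bp. Napa had 2557 bp, 3364 bp, 1133 bp and 2137 bp, at log2 ratios of -0.40 and -0.92. Within each experiment the dDAVP list was the lower one for these genes, but for none of them did the 2 treatments separate across experiments. Its partner Nsf, the ATPase, had more with dDAVP in experiment 1 and fewer in experiment 2 (1672 bp, 1434 bp, 940 bp and 1173 bp). Stx12, a syntaxin of recycling endosomes, was covered only at its start peak, by 2140 bp, 2398 bp, 979 bp and 1684 bp. Its 2 vehicle values also enclosed the dDAVP value of experiment 1. Stx4a, the basolateral and plasma membrane syntaxin, was 1 of the 2 members with more covered bases with dDAVP in experiment 2 (1943 bp, 2212 bp, 1594 bp and 1479 bp). Snap23, the t-SNARE that pairs with plasma membrane syntaxins, had 6863 bp, 5483 bp, 3538 bp and 4417 bp. Over these windows the order of the treatments thus differed between experiments for Stx4a, Snap23 and Nsf. Stx7, of late endosomes, had 26219 bp and 26153 bp in experiment 1 but 6673 bp with dDAVP and 12709 bp with vehicle in experiment 2.

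The early and late endosome Rabs had more covered bases with dDAVP in experiment 1, except Rab5b, and fewer in experiment 2. Their median log2 ratios were 0.50 and -0.54 over 5 genes. After division by list totals 4 of the 5, all but Rab5c, were higher in experiment 2 as well. Division turned the median over all covered genes there too, from -0.49 to 0.28. Rab4a, which sorts cargo back to the surface from early endosomes, had 3742 bp in dDAVP 1, 2291 bp in vehicle 1, 1080 bp in dDAVP 2 and 1250 bp in vehicle 2. Its log2 ratio of 0.71 in experiment 1 was the highest of the members, and it was -0.21 in experiment 2. Rab5c, of early endosome fusion, had its 4 values in the same order, with 12775 bp, 8927 bp, 1725 bp and 3001 bp. Its paralogue Rab5a had 4887 bp, 3464 bp, 1986 bp and 2702 bp. The third paralogue Rab5b had 16345 bp, 16722 bp, 3908 bp and 5672 bp, of which 1911 to 7625 bp lay at the ends of 4 neighbouring genes. Rab7, of late endosomes, had 14608 bp, 12287 bp, 3665 bp and 5598 bp. For all 5, both values of experiment 1 exceeded both of experiment 2, so the treatments overlapped.

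Of the 12 recycling and secretory Rabs and their adaptors, 3 had fewer covered bases with dDAVP in both experiments, namely Rab8b, Rab10 and Rab11fip1, and after division by list totals Rab8b and Rab11fip1 still did. Rab8b (chr9:66843609-66919705), a Rab of exocytic carriers, had 4133 bp in dDAVP 1, 5762 bp in vehicle 1, 817 bp in dDAVP 2 and 3367 bp in vehicle 2. Its log2 ratios were -0.48 and -2.04, and its mean ratio was the lowest of all members. In dDAVP 2 only the peak over the promoter printed above was called. That peak was 1519 bp, 2275 bp, 817 bp and 1764 bp wide, narrower with dDAVP in both experiments. The highest of the authors' folds in the Rab8b window stood at percentiles 60.6, 70.8, 10.7 and 52.9 of the lists, low only in dDAVP 2. At equal list length Rab8b had 4133 bp with dDAVP and 4036 bp with vehicle in experiment 1, so the direction there turned. Its paralogue Rab8a, which acts in apical exocytosis, had 5515 bp, 4204 bp, 2006 bp and 2046 bp. The pair thus differed, with mean log2 ratios of 0.18 ± 0.30 for Rab8a and -1.26 ± 1.11 for Rab8b (SD, n = 2 experiments), and the difference was not tested.

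Rab11a (chr9:64715300-64737756), the Rab of the apical recycling endosome, had 6568 bp in dDAVP 1, 5199 bp in vehicle 1, 2071 bp in dDAVP 2 and 2410 bp in vehicle 2. The treatments overlapped and the experiments did not. Rab11b had 12171 bp, 11503 bp, 4200 bp and 4915 bp, and Rab25, the epithelial member of the Rab11 family, 22272 bp, 18823 bp, 5107 bp and 6477 bp. The peak over the Rab25 start was 24568 bp wide in dDAVP 1 and 13940 bp in vehicle 1, against 2357 bp and 1903 bp in experiment 2. In vehicle 1 a separate peak of 10509 bp followed after a short gap, over the stretch that dDAVP 1 had as 1 peak. Over these windows all 3 Rab11 genes thus had more covered bases with dDAVP in experiment 1 and fewer in experiment 2. There, division by list totals turned all 3 to more, as it turned the median log2 ratio over all covered genes (-0.49 to 0.28). Ends of 3 neighbouring genes held 5820 bp, 5820 bp, 2876 bp and 3355 bp of the Rab25 window. Within its gene span alone Rab25 had 6107 bp, 6215 bp, 1166 bp and 1321 bp, so its direction in experiment 1 turned. Rab11a and Rab11b kept theirs within their spans, though Rab11a was nearly level in experiment 1 (4731 bp with dDAVP and 4685 bp with vehicle). Rab10, of exocytic transport, had 4612 bp, 8041 bp, 2810 bp and 3619 bp, with the largest drop in experiment 1 of any member (log2 ratio -0.80). Rab3d, of secretory granules, was level in experiment 1 and lower with dDAVP in experiment 2 (8266 bp, 8208 bp, 2534 bp and 5561 bp). Rab27a and Rab27b, which dock secretory vesicles, had 5475 bp, 5280 bp, 2393 bp and 3513 bp, and 4059 bp, 3572 bp, 1268 bp and 1927 bp. For these 4 Rabs, too, the treatments overlapped across experiments.

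Among the Rab11 adaptors, Rab11fip3 held the most covered bases of any member in every list (54987 bp, 48625 bp, 13036 bp and 17560 bp). Its start peak was 20327 bp wide in dDAVP 1 and 3775 bp in vehicle 1, where a separate peak of 14373 bp over the same stretch followed after a short gap. Rab11fip2, which couples Rab11 to myosin Vb, was covered at its start alone, by 2210 bp, 1764 bp, 1080 bp and 1485 bp. Rab11fip1 had 23685 bp, 25795 bp, 7612 bp and 12952 bp, lower with dDAVP in both experiments, but higher in both when the lists were cut to equal covered bases. The treatments overlapped across experiments for all 3 adaptors.

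The myosin motors were lower with dDAVP in all 5 cases in experiment 2, and 3 of them, Myo5b, Myo5c and Myo6, in both experiments. After division by list totals all 5 were higher in experiment 2, where the median log2 ratio over all covered genes turned from -0.49 to 0.28. At equal list length Myo5b (15048 bp with dDAVP, 14360 bp with vehicle) and Myo5c (25698 bp and 24437 bp) turned to more with dDAVP in experiment 1, so neither was lower in both. Myo5b, the motor that works with Rab11 in apical recycling, had 19438 bp in dDAVP 1, 21394 bp in vehicle 1, 5161 bp in dDAVP 2 and 7488 bp in vehicle 2. These lay in 12, 13, 2 and 4 peaks, so experiment 1 gave it more peaks under either treatment. Myo5c, the class V motor of epithelia, had 28675 bp, 31024 bp, 8975 bp and 13040 bp. Its start peak was 7916 bp and 7931 bp wide in experiment 1, and 1334 bp with dDAVP and 6978 bp with vehicle in experiment 2. Myo6, which moves towards the minus end of actin and acts in endocytosis, had 18919 bp, 23617 bp, 11664 bp and 13533 bp. Its mean log2 ratio was -0.27 ± 0.07 (SD, n = 2 experiments), and both ratios fell on one side of 0. Myo5a (8408 bp, 6894 bp, 2536 bp and 4069 bp) shares 11720 bp of its window with Myo5c. The short-tailed motor Myo1c had 13462 bp, 13189 bp, 7728 bp and 9772 bp, and experiment 1 held 1.52 times the bases of experiment 2, the lowest such factor of the 5 motors.

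Among retromer genes, 1 of 3, Vps35, had fewer covered bases with dDAVP in both experiments, and within its gene span alone or after division by list totals it did not. For Vps35, a core retromer subunit, the highest fold in the window stood at percentiles 98.8, 99.4, 96.0 and 98.6 of the lists. The start peak of Vps26a, also a core subunit, stood at percentiles 98.1, 98.0, 63.3 and 80.9, and a higher peak of its window lies in the flank, outside the gene. Vps35 had 3118 bp in dDAVP 1, 3367 bp in vehicle 1, 1767 bp in dDAVP 2 and 1955 bp in vehicle 2, and Vps26a had 7049 bp, 6052 bp, 3231 bp and 3330 bp. Snx27 (chr3:94497542-94582736) had 12993 bp, 8073 bp, 551 bp and 2091 bp. It was higher with dDAVP in experiment 1 and lower in experiment 2, at log2 ratios of 0.69 and -1.92, and experiment 1 held 7.97 times the covered bases of experiment 2. At equal list length the values were closer, at 3321 bp, 1936 bp, 551 bp and 924 bp, and its mean log2 ratio went from -0.62 to 0.02. Its peak near the high-coordinate gene end was called in every list (fold 5.12, 5.24, 3.54 and 5.19), while the other peaks of its window had folds of 2.26 to 3.04.

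Genes of clathrin-mediated endocytosis showed no member lower in both experiments. Cltc, the clathrin heavy chain, had 10777 bp in dDAVP 1, 12267 bp in vehicle 1, 3754 bp in dDAVP 2 and 3676 bp in vehicle 2. At equal list length it had 6598 bp with dDAVP and 5748 bp with vehicle in experiment 1, so the direction there turned, and Cltc was higher with dDAVP in both experiments under all 4 stricter choices of peaks. The highest fold in its window was 12.3, 11.4, 10.5 and 12.6. Those folds stood at percentiles 99.7, 99.3, 99.1 and 99.1 of their lists. Dnm2, the dynamin that pinches vesicles off, had 23844 bp, 19376 bp, 3408 bp and 4281 bp, 5.62 times as many in experiment 1 as in experiment 2. Ap2m1, the cargo-binding subunit of the AP-2 adaptor, had 11369 bp, 10321 bp, 4172 bp and 4887 bp. The treatments overlapped for all 3.

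Other genes of the same route were taken from 8 lists of 122 genes that are no members. Of these, 94 had a gene end called in all 4 lists (45.4% of all genes did) and 107 had covered bases in all 4. Among the 107, 54 (50.5%) had fewer covered bases with dDAVP in both experiments and 1 (0.935%) had more, Hgs of the endosomal sorting complex (log2 ratios 0.19 and 0.10), beside 51.4% and 2.84% of all covered genes. After division by list totals 13 of the 107 were lower in both and 44 higher, and of all covered genes 16.2% and 43.6% were. The medians of the undivided log2 ratios were -0.02 and -0.47. The exocyst, which tethers vesicles, had 8 of 9 ends called and 3 genes lower in both. Other retromer, sorting nexin and WASH genes had 12 of 12 called and 6 lower in both. Paralogues known from neurons differed in being called: 3 of 12 had an end called in all 4 lists and 8 in none.

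Only those genes with the same direction in both experiments were ranked, by the smaller of the 2 absolute log2 ratios. Hgs alone of these was higher. The first 10 of the lower genes were Syt1, Rab9, Stx8, Msn, Rab17, Rab12, Vta1, Tbc1d4, Washc2 and Rab11fip5. After division by list totals 5 of the 10, Syt1, Rab9, Stx8, Msn and Rab11fip5, were still lower in both. Syt1, the calcium sensor of neuronal exocytosis, had 4594 bp in dDAVP 1, 8051 bp in vehicle 1, 728 bp in dDAVP 2 and 4934 bp in vehicle 2, with no gene end called in any list. Rab9, of transport from late endosomes, had 950 bp, 1633 bp, 440 bp and 1219 bp. Stx8, an endosomal t-SNARE, had 24676 bp, 37800 bp, 5709 bp and 21132 bp. Vta1 (Lip5), which is known to bind aquaporin-2, had 1209 bp, 1583 bp, 714 bp and 1077 bp. Tbc1d4, a Rab GTPase-activating protein, had 26186 bp, 34093 bp, 8245 bp and 11067 bp. Msn, a membrane linker, had 3721 bp, 5200 bp, 1474 bp and 4203 bp. Both dDAVP values lay below both vehicle values for Syt1, Rab9 and Msn, and the treatments overlapped for the others of the 10.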

How the data were processed

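Peak lists of H3K27ac chromatin immunoprecipitation in mpkCCD cells were analysed, 2 with dDAVP and 2 with vehicle. Reads were aligned to mm10 with BWA, handled with SAMtools and called with MACS2, per the submitters' processing notes. Each list was called in broad mode with MACS 2.1.1.20160309 on 1 library against its own input, with q limits of 0.01 and 0.1, per the file headers. The deposited values per peak are a signal (pileup), a ratio (fold enrichment) and −log10 p and q values. The last 2 have lost their column names and were read by their order and values. They are the authors' own, and were used only to rank, filter or describe peaks within a list. Kept tags numbered 27923780, 32705755, 31676748 and 31283282 for dDAVP 1, vehicle 1, dDAVP 2 and vehicle 2, per the file headers. Peak names inside the lists of experiment 2 carry another experiment number than the labels do, and the labels were followed.

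Covered bases and calls (at least 1 bp of overlap) were computed with Python 3.11.15 and numpy 2.4.6, on scripts tested on simulated data, from RefSeq positions of GRCm38.p6. Protein-coding genes ending below 3 Mb on autosomes or X (108) were left out, since no list has a peak there. Comparisons were made within an experiment, which pairs a dDAVP and a vehicle list: over 12558 genes, the deviations of the 2 lists of an experiment from their treatment means correlated (Pearson's r 0.62, a value that is the same for both experiments when a treatment has 2 lists). No test across genes was made with 2 lists a group. Tag counts per region, and so depth-based intervals, were not used here. The members, gene lists, motifs and rules were chosen with earlier results of these data known. All members are named. Pathway genes are named when both experiments share a direction, at most 10 in each direction by the smaller absolute log2 ratio. Promoters are those of the 2 highest and 2 lowest mean ratios, and of Rab11a and Vamp2. Of these, 4 of the 6 had a RefSeq promoter.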

Additional observations from a re-analysis of the deposited data

How the results depend on the processing

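Calls at gene ends in all 4 lists ranged from 36 to 38 members when any 1 list was left out. They fell to 21 with a fold of at least 5 and to 23 with lists cut to equal covered bases, both of which remove peaks. With at least 50% of the gene end window covered they were 26, and elsewhere they stayed within 1.5 times of 36. The shares of all genes were not computed under these settings, so these counts cannot be set beside a background. The count with fewer covered bases with dDAVP in both experiments was 13. It was 8 of the 29 members still covered in all 4 lists at equal covered bases, against 37.9% of all such genes. With flanks of 25 kb it was 20 of 39, against 53.3%. It was 0 when a difference of at least 1.5 times was asked for, against 3.81%. With no replicate block (both dDAVP lists below both vehicle lists) it was 1, against 5.66%. When 1 list was left out, which leaves 1 experiment, it was 15 to 37. The count with more in both was 0. It was 1 of 36 members at a −log10 q of at least 5, against 3.51% of all genes still covered. At a fold of at least 5 it was 2 of 28, against 4.07%. Lists of equal length gave 1 of 39, against 4.59%, and equal covered bases 4 of 29, against 12.5%. Without flanks it was 6 of 39, against 5.53%, namely Vamp2, Vamp3, Snap23, Rab8a, Vps35 and Vps26a. For Snap23 the margin in experiment 2 was narrow there, 737 bp with dDAVP and 736 bp with vehicle. The count with more was 2 to 24 when 1 list was left out, which leaves 1 experiment. At a fold of at least 5, 1 member had no covered base in any list. The exact permutation p of a single member could reach 0.5 at best, or 0.33 with no replicate block.

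Alternatives chosen after seeing the data were dividing each list by its covered bases and leaving out the ends of other genes. Division gave 5 members lower and 21 higher in both experiments and turned the median log2 ratio of experiment 2 from -0.44 to 0.32. It moved the median of all genes there likewise, from -0.49 to 0.28. Leaving out other genes' ends gave 1 member higher in both, Vamp3. Without flanks the mean log2 ratio turned from -0.29 to 0.18 for Rab5b and from -0.13 to 0.11 for Vps35. Of the 39 members' mean log2 ratios, 37 at equal list length, 32 without flanks and 35 with flanks of 25 kb moved by less than their SD over the experiments. Elsewhere, medians moved by less than the SD over the 2 experiments. Such an SD is wide where the 2 experiments disagree, so a shift below it does not show that a value held. Snx27, for example, went from -0.62 to 0.02 at equal list length, within its SD of 1.85. The count of narrower start peaks (14 of 28) rose when 1 list was left out, which leaves 1 experiment. It was 18 of 30 in experiment 1 alone and 23 of 28 in experiment 2 alone. Shares of all genes were not computed for these. Depth ranged from 27923780 to 32705755 kept tags, and its part in the calls was not tested.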
